A study of Mus musculus with 48 samples.

Results

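The replication licensing genes described here are those that load and hold the DNA helicase at replication origins, together with the sliding clamp of the fork. They were chosen by name, as every probe whose target in the deposited table is MCM2, MCM3, MCM4, MCM5, MCM6, MCM7, CDC6, CDT1 or PCNA. This gave 13 of the 24613 probes on the array, under 8 of 18991 gene symbols, and MCM3 was not analysed here. The samples were 3T3-L1 cells, a mouse fibroblast line that turns into fat cells under a hormone cocktail, on 48 Illumina bead arrays. The cells carried either a pool of siRNA against PPARγ (the PPARγ KD) or a pool of non-targeting siRNA (control siRNA), each at 50 nM and transfected before differentiation. Both siRNAs were followed by the same cocktail at confluency, namely dexamethasone at 0.25 µM and IBMX at 0.5 mM over the 48 hours from day −2, then rosiglitazone at 1 µM and insulin at 5 µg/ml over the 48 hours from day 0. Cells were collected on day −2 and on days 0 to 6, counted from rosiglitazone, in 3 biological replicates of each siRNA and day. On that schedule day −2 is the start of the cocktail, and day 0 precedes insulin and rosiglitazone. The control is a transfected cell and not an untreated one, and an siRNA pool lowers its transcript in part, without removing the gene.

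Before a cell copies its DNA, the origin recognition complex, CDC6 and CDT1 load the ring of MCM2 to MCM7 onto each origin, which licenses that origin to fire. The ring then opens the double helix at the fork, and PCNA encircles the DNA and holds the polymerases on it. Transcripts of these genes are made mostly around the start of S phase, in large part under the E2F transcription factors. Confluent 3T3-L1 cells that receive the cocktail are known to re-enter the cell cycle for a few rounds before they become fat cells, a phase called clonal expansion. The arrays measured RNA, and the values hold no count of cells and no measure of DNA synthesis. In RNA from a whole culture, fewer cells in S phase and less transcript per cell cannot be told apart.

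RefSeq promoter windows (build GRCm38.p6, from 250 bases before to 50 bases after the start) were matched by symbol for 8 of the 9 genes named by the rule, with 9 windows because MCM7 has 2. No window was matched for MCM4, and MCM3, which was not analysed on the arrays, is among these 8. The letters of the E2F core (TTNNCGC with C or G at each N, on either strand) were found in 7 of the 9 windows, against 9.57% of all 32851 windows. These 7 belong to 6 of the 8 genes. The 6 genes were MCM3, MCM5, MCM6, MCM7, CDC6 and CDT1. The CCAAT box was found in 7 of the 9 windows as well, from 6 genes, against 37.4% of all windows. The letters TTTGAA of the cell cycle homology region were found in 1 of the 9, that of MCM2, against 17.9% of all windows. The 200 bases before the start are shown for 4 genes, MCM5 and MCM6 because they hold the core and MCM2 and PCNA because their windows do not. Capitals mark the E2F core and the CCAAT box on either strand, and the longest runs of capitals are pairs of E2F cores that overlap on opposite strands.
MCM5, chr8:75109309-75109508, plus strand: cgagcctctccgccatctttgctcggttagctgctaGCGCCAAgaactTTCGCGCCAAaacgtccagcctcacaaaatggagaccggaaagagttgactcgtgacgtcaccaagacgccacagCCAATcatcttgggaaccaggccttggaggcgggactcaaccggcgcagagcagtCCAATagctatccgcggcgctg
MCM6, chr1:128359706-128359905, minus strand: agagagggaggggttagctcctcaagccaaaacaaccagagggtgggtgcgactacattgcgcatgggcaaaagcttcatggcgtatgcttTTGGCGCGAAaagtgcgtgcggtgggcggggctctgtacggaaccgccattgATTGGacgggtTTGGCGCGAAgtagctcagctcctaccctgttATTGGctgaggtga
MCM2, chr6:88898781-88898980, minus strand: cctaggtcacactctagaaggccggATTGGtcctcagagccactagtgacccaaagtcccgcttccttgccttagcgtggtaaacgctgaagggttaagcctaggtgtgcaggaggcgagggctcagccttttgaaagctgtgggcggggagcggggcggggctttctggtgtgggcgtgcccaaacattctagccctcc
PCNA, chr2:132253181-132253380, minus strand: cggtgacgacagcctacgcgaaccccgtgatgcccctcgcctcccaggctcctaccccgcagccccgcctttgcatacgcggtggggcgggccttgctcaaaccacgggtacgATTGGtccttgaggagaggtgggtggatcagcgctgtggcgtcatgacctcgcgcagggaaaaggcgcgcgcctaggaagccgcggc
These matches describe the letters of the windows, and binding of any factor was not measured here.

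Each array showed 33.4% to 40.4% of its probes above background, which here means a detection p under 0.01. Pparg itself, read by its probe that was above background on all 48 arrays, was lower in the PPARγ KD by 2.34 on the log2 scale (log2 difference −2.34, SE 0.04), with daily differences between −1.93 and −2.63. All 6 fibroblast markers examined were above background on every array, and all 6 markers of blood, vessel and epithelial cells on none. The 7 adipocyte markers summed to between 10487 and 12200 on the 3 control arrays of day −2 and to between 129852 and 140494 on those of day 6, in units of corrected linear signal. In the PPARγ KD the same sums were 4553 to 5115 and 30347 to 32895. At day −2 the sums are almost all LPL, at 13.40 in the control and 12.14 in the PPARγ KD on the log2 scale. On that day 1 of the 7 markers was called lower, and the median difference was −0.04. Of all probes 0.861% were called in either direction. The arrays of replicate 3 stood apart, with 33.4% to 35.4% of probes above background against 36.8% to 40.4% on the arrays of replicates 1 and 2, and the labels do not say in what the replicates differed.

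Each gene is given by the brightest of its probes, and that probe was above background on all 48 arrays for each of the 8 genes. Of the other 5 probes, the second MCM6 probe was above background on all 48 arrays and the second MCM7 probe on 35, while those of CDC6 and MCM4 and the third of MCM6 were on none. The level in replicate 3 differed between probes of the same gene. The MCM6 probe used here was lower in replicate 3 than in the other replicates (log2 difference −1.35), whereas the second MCM6 probe was at the same level (0.01). The MCM7 probe used here was lower by 0.38 (log2 difference −0.38), whereas the dimmer MCM7 probe was higher by 1.39. PCNA, with a single probe, was lower by 2.63 (log2 difference −2.63) and CDC6 by 0.68 (log2 difference −0.68), and the remaining 4 genes differed by between −0.02 and −0.19. Every fitted difference below is taken within replicate numbers, and levels are not compared between probes.

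In cells with control siRNA, 3 of the 8 licensing genes fell over the IBMX and dexamethasone treatment, 7 rose on the day after insulin and rosiglitazone were added, and 5 fell between day 2 and day 3. Here rose and fell mean a Bonferroni-adjusted p of at most 0.05 from limma over all 24613 probes. Of all probes, 4.89% rose between day 0 and day 1. The median difference over the 8 genes was 0.91 on the log2 scale, against 0.04 over all probes.

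MCM5, a subunit of the helicase ring, moved by the widest margin of the 8 genes in this step. Its log2 signal in control replicates 1, 2 and 3 was 12.36, 12.22 and 12.22 at day −2, 11.53, 11.40 and 11.40 at day 0, 13.22, 13.13 and 13.22 at day 1, 12.81, 12.88 and 12.83 at day 2, and 12.16, 12.07 and 12.21 at day 3. The arrays of day 0 lay below all those of day −2, and those of day 1 above all those of the other days. The rise from day 0 to day 1 was 1.74 (SE 0.11, adjusted p = 3e-13), or 3.35-fold. On day 6 its signal was 11.39, 11.11 and 11.32, which gave the lowest mean of the 8 control days.

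MCM2, another subunit of the ring, fell and rose over the same days as MCM5. In the control replicates its log2 signal was 10.68, 10.56 and 10.72 at day −2, 9.85, 9.65 and 10.00 at day 0, 11.29, 11.17 and 11.34 at day 1, 11.24, 11.12 and 11.18 at day 2, and 10.63, 10.35 and 10.49 at day 3. Days 1 and 2 overlapped, and both lay above all other days. The rise from day 0 to day 1 was 1.43 (SE 0.09, adjusted p = 2.42e-13), or 2.70-fold.

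CDT1, which brings the MCM ring to the origin, had a control log2 signal of 10.58, 10.43 and 10.32 at day −2, 9.66, 9.77 and 9.68 at day 0, 11.23, 11.26 and 11.06 at day 1, 11.22, 11.28 and 11.16 at day 2, and 10.36, 10.30 and 10.16 at day 3. Its rise from day 0 to day 1 was 1.48 (SE 0.09, adjusted p = 4.29e-14), or 2.79-fold. The arrays of days 1 and 2 overlapped and were higher than those of any other day. CDC6, the ATPase that acts with CDT1, rose by 0.98 (SE 0.11, adjusted p = 2.48e-06), from 8.06, 8.002 and 7.19 at day 0 to 8.98, 9.03 and 8.17 at day 1. Replicate 3 lay lower on both days, and the rise was 0.92, 1.03 and 0.99 within the 3 replicates.

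The remaining subunits of the ring rose by less in the same step. The differences were 0.85 for MCM6 (SE 0.12, adjusted p = 0.000806), 0.78 for MCM4 (SE 0.11, adjusted p = 0.000182) and 0.68 for MCM7 (SE 0.09, adjusted p = 9.8e-05). The second MCM6 probe rose by 1.06 and the dimmer MCM7 probe by 1.00, so that 9 of the 13 probes rose. Without replicate 3, the brighter MCM6 probe differed by 0.76 with an adjusted p = 1, and the other 6 genes remained called. Without replicate 1, the number of genes called was 3.

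PCNA did not follow the others. Its control log2 signal in replicates 1, 2 and 3 was 10.81, 10.53 and 7.88 at day −2, 11.35, 11.14 and 8.30 at day 0, and 10.70, 10.87 and 8.06 at day 1. In each replicate day 0 was the highest of these 3 days. The difference was 0.52 from day −2 to day 0 (SE 0.12) and −0.38 from day 0 to day 1 (SE 0.12), each with an adjusted p = 1, so that neither passed the test. Over the 16 means of siRNA and day, the correlation of PCNA with the mean profile of the other 7 genes was 0.36, whereas each of the other 7 reached between 0.90 and 0.96. These points share arrays and scaling, and the correlation is given as a description.

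**Figure D1:**
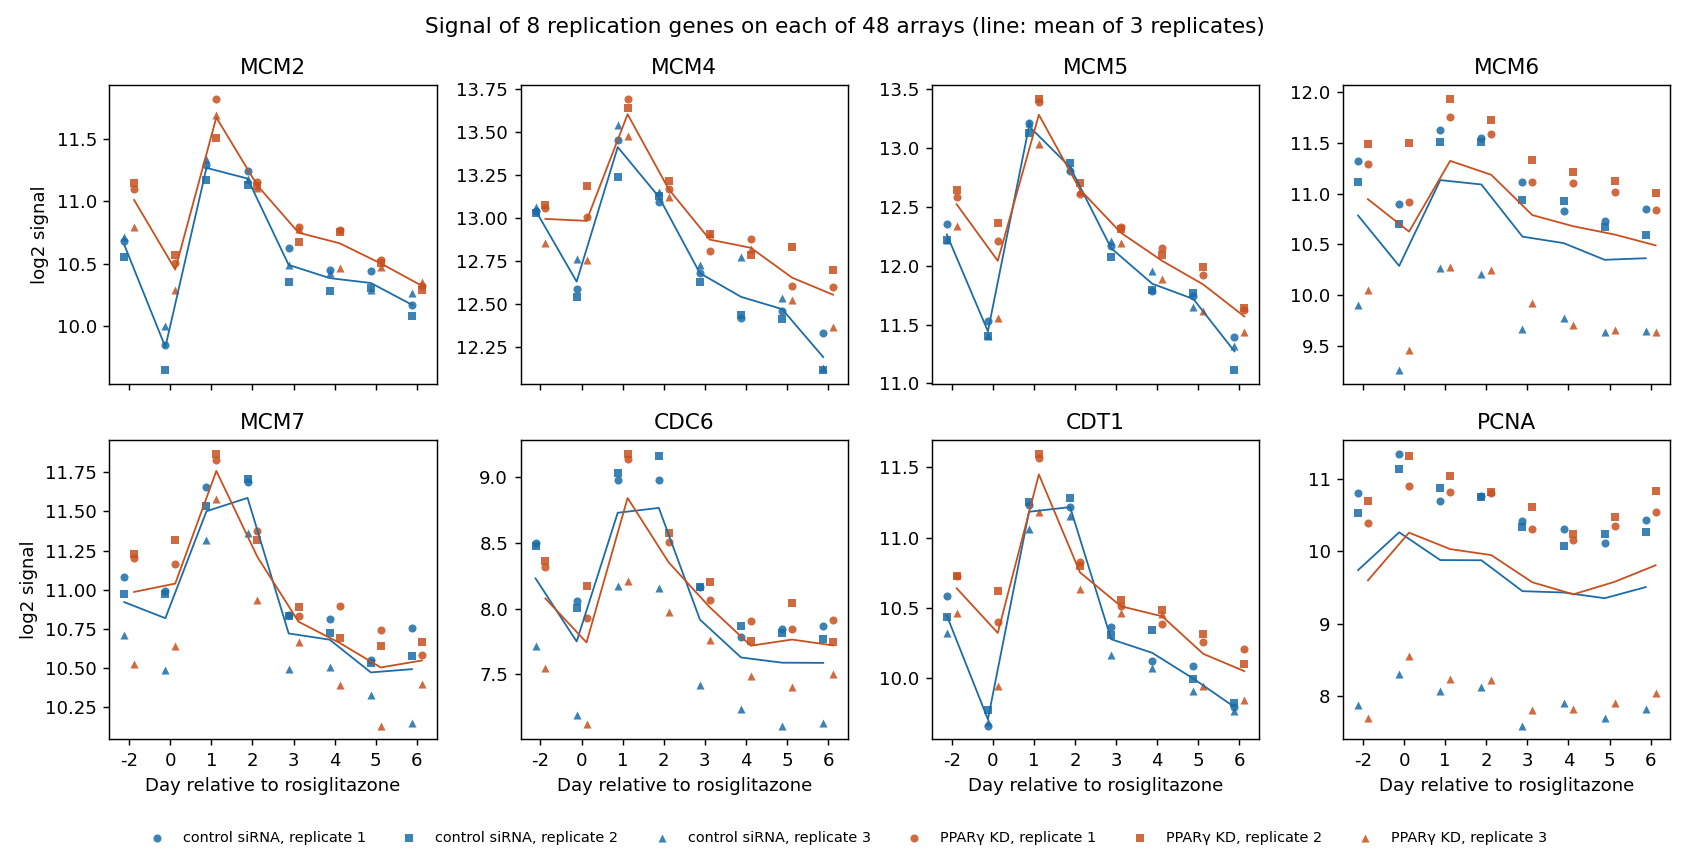
The log2 signal of 8 replication licensing genes is plotted against the day relative to rosiglitazone, with a panel and its own vertical scale for each gene. Each point is an array, the marker gives the replicate, and the lines join the means of 3 replicates for control siRNA (blue) and PPARγ KD (orange). Day 1 is the highest or next to highest day in the panels of the MCM genes, CDC6 and CDT1, day 0 is the highest for PCNA, and replicate 3 (triangles) lies far below the others for MCM6 and PCNA.

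The step before this rise, from day −2 to day 0, was downward for 7 of the 8 genes in the control, and 3 of them passed the test: MCM5 (−0.82), MCM2 (−0.82) and CDT1 (−0.74). Over all probes 5.04% fell, and the median of the 8 genes was −0.49 against 0.08. Without replicate 1 the number of genes called was 0. From day 1 to day 2 no control gene passed the test in limma, with 2 genes at an unadjusted p under 0.05, MCM5 (−0.35) and MCM4 (−0.29). In that step 3.41% of all probes were called.

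From day 2 to day 3 all 8 control differences were below 0, with a median of −0.69 against 0.01 over all probes, of which 54.2% were above 0. CDT1 fell by 0.94 (log2 difference −0.94, SE 0.09, adjusted p = 4.1e-08), MCM7 by 0.87 (−0.87, SE 0.09), CDC6 by 0.85 (−0.85, SE 0.11), and MCM2 and MCM5 each by 0.69 (−0.69). These 5 genes passed the test, where 3.92% of all probes fell, and 7 of the 13 probes did. MCM6 (−0.51), MCM4 (−0.44) and PCNA (−0.43) did not pass. The second MCM6 probe did, with control means of 10.65 on day 2 and 10.02 on day 3. Without replicate 1 or without replicate 2 the number of genes called was 2. No gene passed limma's test in the steps after day 3 under either siRNA, with 2, 1 and 3 control genes and 2, 1 and 1 PPARγ KD genes at an unadjusted p under 0.05 in the 3 steps. Few probes of the array passed there either, 0.934%, 0.163% and 0.0691% in the control and 0.345%, 0.0609% and 0.0203% in the PPARγ KD. All 8 control differences were below 0 from day 3 to day 4 and from day 4 to day 5, with medians of −0.10 each.

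In the order of the control days, days 1 and 2 headed the list for the 7 genes other than PCNA. The means of these 2 days differed by no more than the SD between replicates for MCM6, CDC6 and CDT1, and by more than that for MCM2, MCM4, MCM5 and MCM7. Day 6 had the lowest mean for MCM4, MCM5 and CDC6, day 0 for MCM2, MCM6 and CDT1, and day 5 for MCM7 and PCNA. The lowest day differed from the next by more than the SD between replicates for MCM2, MCM4, MCM5 and CDT1, and by less for MCM6, MCM7, CDC6 and PCNA. From the highest to the lowest day the control mean ranged over 1.91 for MCM5, 1.51 for CDT1 and 1.43 for MCM2, and over 0.85 for MCM6. That holds for the brighter MCM6 probe. The second MCM6 probe had its highest control mean on day 1 (10.80) and its lowest on day 6 (9.38), a wider range.

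In the PPARγ KD the decline from day −2 to day 0 passed for MCM2 alone, which fell by 0.56 (log2 difference −0.56, SE 0.09, adjusted p = 0.0158), where 4.02% of all probes fell and 6 of the 8 genes were below 0. With any one of the 3 replicates left out MCM2 no longer passed. Its PPARγ KD arrays were 11.09, 11.14 and 10.79 at day −2 and 10.51, 10.57 and 10.29 at day 0. PCNA differed by 0.66 (SE 0.12, adjusted p = 0.066), above 0 in each replicate, and did not pass.

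The genes that rose in the control between day 0 and day 1 also rose in the PPARγ KD, and their mean signal was lower again on day 2. Between day 0 and day 1, 7 genes rose: MCM5 by 1.24, MCM2 by 1.21, CDT1 by 1.13, CDC6 by 1.096, MCM7 by 0.72, MCM6 by 0.70 and MCM4 by 0.62, with SE between 0.09 and 0.12. The median of the 8 genes was 0.91, against −0.12 over all probes, of which 4.7% rose. PCNA differed by −0.23 (SE 0.12) and did not pass. Without replicate 1 the count of genes called was 4, and without replicate 3 it was 5.

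From day 1 to day 2 the PPARγ KD arrays fell in 3 genes, CDT1 by 0.70 (log2 difference −0.70, SE 0.09, adjusted p = 8.61e-05), MCM7 by 0.55 (−0.55, SE 0.09) and MCM2 by 0.54 (−0.54, SE 0.09), where 0.865% of all probes fell. The log2 signal of CDT1 in replicates 1, 2 and 3 was 11.57, 11.60 and 11.18 on day 1 and 10.83, 10.80 and 10.63 on day 2. The days did not overlap. The second MCM6 probe fell as well (−0.63, adjusted p = 0.00386), while the brighter MCM6 probe differed by −0.14 with an adjusted p = 1, so the 2 probes of MCM6 disagree here. MCM5 (−0.64, adjusted p = 0.0544), CDC6 (−0.49) and MCM4 (−0.44) did not pass. All 8 differences were below 0, with a median of −0.52, against −0.04 over all probes. Without replicate 1 or replicate 2 no gene passed in this step, and without replicate 3 the count was 2. From day 2 to day 3 no PPARγ KD gene passed, with 8 genes at an unadjusted p under 0.05 and a median of −0.37 against 0.01 over all probes, of which 1.9% were called.

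The difference between the siRNAs in the step from day 1 to day 2 was itself tested. It passed for CDT1, whose step was 0.03 in the control and −0.70 in the PPARγ KD, which differed by −0.73 (SE 0.13, adjusted p = 0.0402). Within the 3 replicates the difference was −0.72, −0.82 and −0.65. Among all probes 0.926% were called lower in this comparison. Next came MCM7 (−0.63, adjusted p = 0.329), CDC6 (−0.53), MCM2 (−0.46) and MCM5 (−0.29), none of which passed, and all 8 genes lay below 0, with a median of −0.37. Of all probes 41.3% lay above 0, with a median of −0.04. The call for CDT1 was lost with any one of the 3 replicates left out, at −0.74, −0.68 and −0.77 in turn, with adjusted p-values from 0.272 to 1.

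From day 2 to day 3 the same comparison was above 0 for all 8 genes, with a median of 0.32 against −0.00354 over all probes, and no gene passed, the nearest being CDT1 at 0.70 (SE 0.13, adjusted p = 0.0868) and 1.51% of all probes called. The 2 steps share the arrays of day 2, which enter them with opposite signs.

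**Figure D2:**
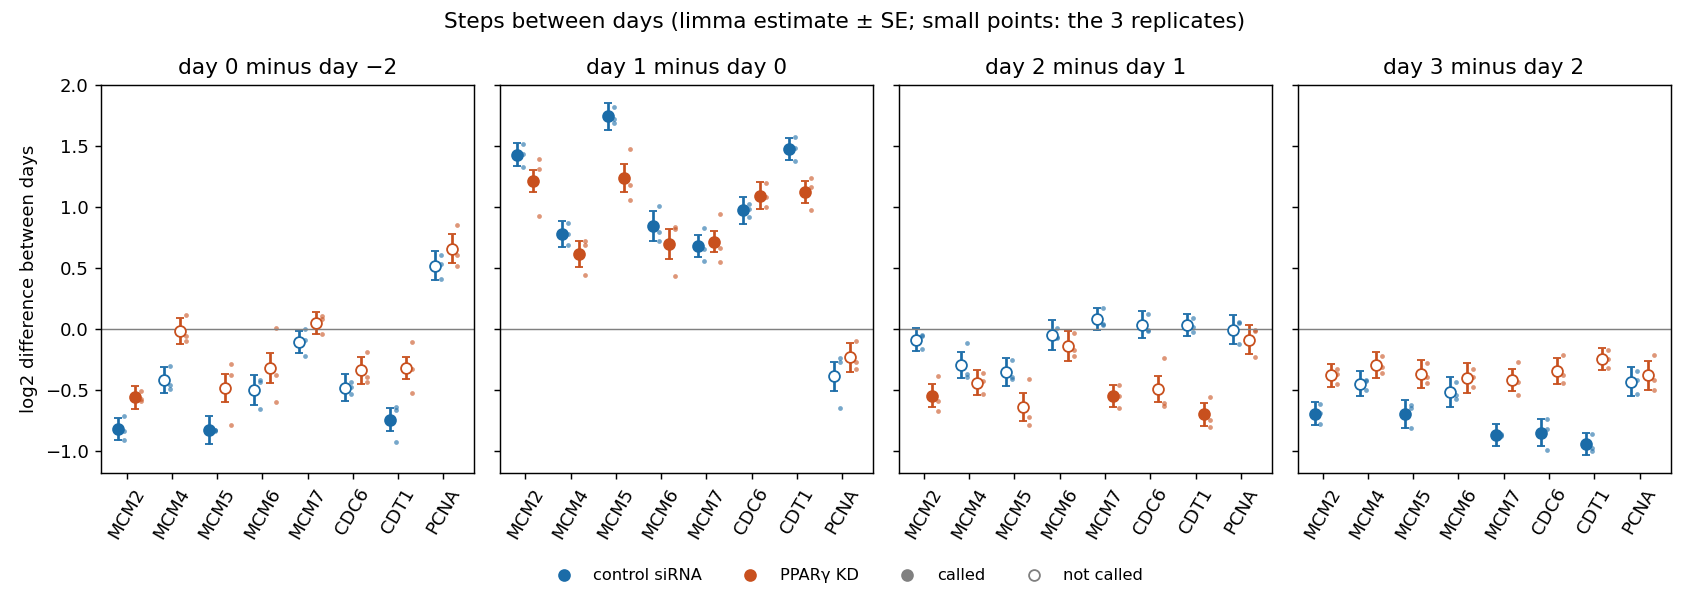
Each panel plots the log2 difference between a day and the day measured before it for 8 genes under control siRNA (blue) and PPARγ KD (orange). Large points are limma estimates with SE bars, filled where the Bonferroni-adjusted p is at most 0.05, and small points are the 3 replicates. In the panel of day 1 minus day 0 every gene but PCNA lies above 0 for both siRNAs, and in the next panel the control points reach down to −0.35 for MCM5, with none called, while the PPARγ KD point of CDT1 lies at −0.70.

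The comparison of the PPARγ KD with control siRNA asks whether loss of PPARγ transcript alters the level of these genes. Averaged over the 8 days, MCM2 and CDT1 were higher in the PPARγ KD, where 6.37% of all probes were called higher and 6.74% lower. The log2 signal of MCM2 averaged 10.54 ± 0.09 in the control and 10.81 ± 0.07 in the PPARγ KD (SD, n = 3). The difference was 0.27 (SE 0.03, adjusted p = 1.51e-05), and the PPARγ KD array was the higher in 21 of 24 pairs that shared day and number. CDT1 averaged 10.35 ± 0.07 and 10.54 ± 0.15 (SD, n = 3) and differed by 0.19 (SE 0.03, adjusted p = 0.0159), likewise in 21 of 24 pairs. The fit treats the 8 days of a replicate number as independent, and the 24 pairs come from 3 replicates. These SE and p-values therefore do not measure how the 8-day difference varied between the 3 replicates. With each pair of arrays of a day and number as its own block, MCM2 passed (adjusted p = 0.0112 from limma) and CDT1 did not (adjusted p = 0.596).

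The other 6 genes did not pass. The differences were 0.20 for MCM4 (adjusted p = 0.154), 0.19 for MCM5 (adjusted p = 0.899), 0.19 for MCM6, 0.09 for PCNA, 0.04 for MCM7 and 0.00369 for CDC6, with 95% intervals of 0.12 to 0.27 for MCM4 and −0.08 to 0.08 for CDC6. All 8 were above 0, where 35.1% of all probes were, and the median was 0.19 against −0.03. Among probes above background on at least 24 arrays the median was 0.02. The median of the 8 genes was 0.15, 0.30 and 0.09 in replicates 1, 2 and 3. Replicate 2 held the highest of the 3 values for MCM2, MCM4, MCM5, MCM6, MCM7, CDT1 and PCNA. Without replicate 1 or replicate 2 no gene passed, and without replicate 3 MCM4 (0.29) and MCM5 (0.29) joined MCM2 and CDT1.

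By day, the calls fell on day 0, the end of the IBMX and dexamethasone treatment. MCM2 was 9.85, 9.65 and 10.00 in the control and 10.51, 10.57 and 10.29 in the PPARγ KD, which differed by 0.62 (SE 0.09, adjusted p = 0.00186), or 1.54-fold. CDT1 was 9.66, 9.77 and 9.68 in the control and 10.40, 10.62 and 9.95 in the PPARγ KD, which differed by 0.62 (SE 0.09, adjusted p = 0.00137), or 1.53-fold. The groups did not overlap for either gene, and replicate 3 of the PPARγ KD lay nearest to the control. In replicate 1 the deposited signal was 1221.4 in the control and 1114.4 in the PPARγ KD for MCM2, and 1081.5 and 1040.8 for CDT1. The rise within replicate 1 therefore rests on the background correction and scaling of its arrays. In replicates 2 and 3 the deposited signal of both genes was higher in the PPARγ KD. Of all probes 1.67% were called higher on this day. With each pair of arrays as a block neither gene passed on day 0, with an adjusted p from limma of 0.257 for MCM2 and 0.111 for CDT1.

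MCM5 showed a like difference on day 0 of 0.60 (SE 0.11, adjusted p = 0.149), which did not pass. Its control arrays were 11.53, 11.40 and 11.40 and its PPARγ KD arrays 12.21, 12.36 and 11.56. The groups did not overlap, as was the case for MCM2 and CDT1 and for 5.03% of all probes with the PPARγ KD higher, and replicate 3 again differed least, by 0.16 against 0.68 and 0.96. The deposited signal of MCM5 in replicate 1 was 3694.9 in the control and 3464.5 in the PPARγ KD, so its difference of 0.68 too rests on the correction and scaling. MCM4 (0.35), MCM6 (0.34) and MCM7 (0.22) did not pass either, and CDC6 (−0.01) and PCNA (−0.00483) lay near 0. The median of the 8 genes was 0.35, against 0.07 over all probes. Without replicate 1 or replicate 2 no gene passed on day 0, and without replicate 3 MCM5 did so at 0.82 (adjusted p = 0.001).

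On day 2 the order was turned for some of the genes, though none passed the test in limma and 3 had an unadjusted p under 0.05. CDT1 was 11.22, 11.28 and 11.16 in the control and 10.83, 10.80 and 10.63 in the PPARγ KD, which differed by −0.46 (SE 0.09, adjusted p = 0.239), with groups that did not overlap. MCM5 was 12.81, 12.88 and 12.83 in the control and 12.61, 12.70 and 12.63 in the PPARγ KD, and it differed by −0.19 (SE 0.11, adjusted p = 1), again without overlap, as for 9.91% of all probes with the PPARγ KD lower. CDC6 differed by −0.41 (SE 0.11) and MCM7 by −0.38 (SE 0.09), with arrays that overlapped for both. The brighter MCM6 probe (0.10), PCNA (0.07), MCM4 (0.04) and MCM2 (−0.06) lay near 0. The second MCM6 probe averaged 10.65 in the control and 10.37 in the PPARγ KD, without overlap, so the 2 probes of MCM6 disagree here too. The median of the 8 genes was −0.12, the same as over all probes (−0.12), and over probes above background on at least 24 arrays it was 0.03. On this day 4.74% of all probes were called higher and 4.18% lower. When the test was limited to probes above background on at least 3 arrays, which lowers the number of tests, CDT1 passed with an adjusted p = 0.0486.

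Whether the difference between the siRNAs varied from day to day was tested across the 8 days, and 7.11% of all probes passed. CDT1 passed (F = 10.9, adjusted p = 0.00565 from limma), and the other 7 genes did not. The daily differences of CDT1 were 0.19 at day −2, 0.62 at day 0, 0.27 at day 1, −0.46 at day 2, 0.23 at day 3, 0.26 at day 4, 0.18 at day 5 and 0.26 at day 6, so that day 0 stood highest and day 2 was below 0. With any one of the 3 replicates left out, with each pair of arrays as a block or with no block, CDT1 no longer passed. On days 1, 3, 5 and 6 all 8 genes were above 0, with medians of 0.19, 0.16, 0.18 and 0.20. Of all probes 32.7%, 30.6%, 47.5% and 61.8% were above 0 on these days. No gene passed in limma on days −2, 1, 3, 4, 5 or 6, where 3, 3, 2, 3, 1 and 4 genes had an unadjusted p under 0.05. The shares of all probes called on those days were 0.861%, 2.91%, 2.76%, 2.4%, 3.24% and 3.88%.

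**Figure D3:**
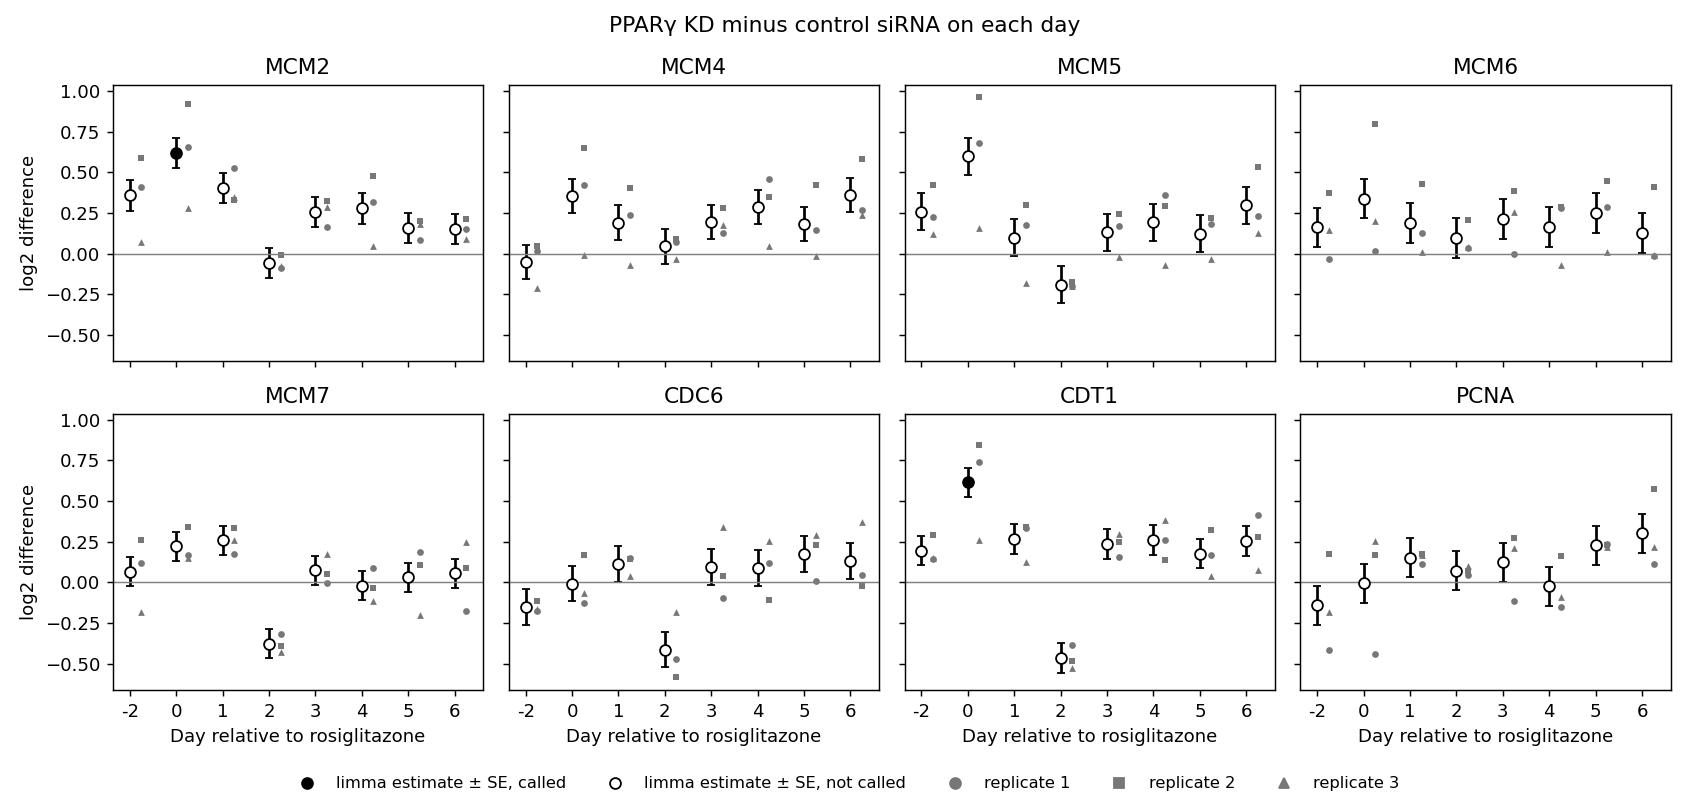
The log2 difference between PPARγ KD and control siRNA is plotted for each day relative to rosiglitazone, with a panel for each of 8 genes and a common vertical scale. Circles with bars are limma estimates with SE, filled where the Bonferroni-adjusted p is at most 0.05, and grey markers are the 3 replicates. MCM2 and CDT1 on day 0 are the filled points, at 0.62 each, and CDT1, CDC6 and MCM7 lie below 0 on day 2.

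Over the whole course, from day −2 to day 6, 4 licensing genes fell in the control and 3 in the PPARγ KD. In the control MCM5 fell by 0.99 (log2 difference −0.99, SE 0.11), MCM4 by 0.85 (−0.85), CDT1 by 0.65 (−0.65) and CDC6 by 0.64 (−0.64), where 2.14% of all probes fell. In the PPARγ KD MCM5 fell by 0.95 (−0.95), MCM2 by 0.69 (−0.69) and CDT1 by 0.59 (−0.59), where 1.92% of all probes fell. The second MCM6 probe fell under both siRNAs, unlike the brighter one. Its mean went from 10.02 to 9.38 in the control and from 10.31 to 9.61 in the PPARγ KD. The difference between the siRNAs in this change passed for none of the 8 genes in limma, with 2 at an unadjusted p under 0.05, PCNA (0.44) and MCM4 (0.41), and 2.99% of all probes called. The control count was 0 without replicate 1 and 2 without replicate 2, and the PPARγ KD count was 0 and 1.

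Genes whose profile was most like that of the members were sought among 9207 probes of other genes above background on at least 24 arrays, by correlation of the 16 means of siRNA and day with the mean standardized profile of the members. The nearest 5 were FANCI (r = 0.981), a Fanconi anaemia repair protein, WDHD1 (0.981), which couples the helicase to the polymerase at the fork, DDX11 (0.978), a DNA helicase, CLSPN (0.977), which acts in the replication checkpoint, and 6720463M24RIK (0.976). Their control rise from day 0 to day 1 was between 0.78 and 1.48, and their control fall from day 2 to day 3 between −0.72 and −0.89. FANCI was above background on 28 arrays, WDHD1 on 38 and the others on all 48.

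The rest of the replication and cell cycle machinery was followed through 5 lists. Of the genes for origin recognition and helicase activation, 9 of the 18 found rose in the control from day 0 to day 1, and none fell. Of all probes 4.89% rose in this step. The steps that stood out were those of DBF4 (1.80, SE 0.14), the activator of the CDC7 kinase that fires licensed origins, and GINS1 (1.75, SE 0.11), part of the active helicase. Geminin (GMNN), which binds CDT1 and blocks a second licensing in the same cycle, was called as well and rose at least 1.71-fold, being above background on no control array of day 0. The recognition subunits ORC3L, ORC4L and ORC5L, at −0.16, −0.30 and 0.05, did not pass in the same step, whereas ORC6L did at 0.57. ORC1L and ORC2L did not pass either, with differences above 0, and both were above background on no control array of day 0. GMNN and the ORC genes were singled out after their values were seen. The median of the list was 0.42. It was 0.32 with a lower bound for the 3 genes that were above background on no control array of day 0 but on some of day 1. Genes above background on no control array of either day kept their own differences in both medians.

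Of the fork polymerases and clamp-handling genes 18 of 25 rose in that step, with a median of 0.85, led by ASF1B (1.85, SE 0.11), a histone chaperone, and LIG1 (1.65, SE 0.11), the ligase that joins lagging-strand fragments. Of the genes for nucleotide supply 6 of 9 rose, with a median of 1.09, led by TK1 (2.66, SE 0.14), thymidine kinase, and RRM2 (1.80, SE 0.16), a subunit of ribonucleotide reductase. Of the G1/S regulators 10 of 15 rose, with a median of 0.70, or 0.63 with such genes at their bound. Among these was CCNE2, cyclin E2, which rose at least 1.63-fold from no array above background on day 0, and E2F2, for which no fold is given because it was above background on none of the day 0 arrays and 1 of the day 1 arrays. Of the mitosis genes 10 of 13 rose, with a median of 1.64, led by CDC20 (2.05, SE 0.12), an activator of the anaphase-promoting complex, and PLK1 (2.01, SE 0.12), a mitotic kinase. No gene of these 5 lists fell in this step, and 4.17% of all probes did.

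In the PPARγ KD the counts for the same step were 6 of 18, 15 of 25, 6 of 9, 9 of 15 and 9 of 13 in the order of the lists above. All of them were higher, beside 4.7% of all probes. From day 2 to day 3 in the control 5, 8, 4, 7 and 7 genes of the lists fell, beside 3.92% of all probes. Cyclin D1 (CCND1), which drives cells through G1, and POLD4, a subunit of DNA polymerase delta, were called higher in that step (1.19 and 0.72), as were 4.53% of all probes. Both were singled out after their values were seen.

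Averaged over 8 days, 9 of 25 fork genes and 9 of 13 mitosis genes were higher in the PPARγ KD, beside 6.37% of all probes. The fit is the one used for MCM2 and CDT1, which treats the 8 days of a replicate number as independent. Its SE and calls for the lists therefore do not measure how the 8-day difference varied between the 3 replicates. The other lists had 1 of 18, 1 of 9 and 1 of 15 genes higher, and nothing is read from a single gene of a list. No gene of the 5 lists was called lower. The fork genes that differed by most were POLE (0.39, SE 0.06) and POLA2 (0.29, SE 0.04), polymerase subunits, LIG1 (0.36, SE 0.04) and CHAF1B (0.31, SE 0.04), a chromatin assembly factor. Among the mitosis genes these were BUB1B (0.46, SE 0.04), AURKA (0.39, SE 0.05), TOP2A (0.38, SE 0.04) and PLK1 (0.38, SE 0.04). The single genes of the other lists were DBF4 (0.38, SE 0.05), RRM1 (0.30, SE 0.04), the large subunit of ribonucleotide reductase, and CCND1 (0.23, SE 0.02). On day 0 the mitosis list had 10 of 13 genes higher, with a median difference of 0.90 against 0.35 for the 8 licensing genes. In the other lists 2, 4, 2 and 1 genes were higher in the order above, beside 1.67% of all probes. These counts use the same day 0 arrays and the same scaling as the calls for MCM2 and CDT1.

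On day 2, where none of the 8 licensing genes was called, the genes called lower in the PPARγ KD were 1 of 18, 2 of 25, 0 of 9, 4 of 15 and 0 of 13 in the order of the lists above, beside 4.18% of all probes. The first pair of shares is near that of all probes. CCND1 was called higher (0.67), as were 4.74% of all probes. Those lower were CCNE2 (−1.12), CDC25A (−0.97), CCNE1 (−0.71) and E2F2 among the G1/S regulators, POLE4 (−0.91) and ASF1B (−0.91) among the fork genes, and CDC45L (−0.93), a component of the active helicase. E2F2 was at least 1.76-fold lower, being above background on none of the PPARγ KD arrays of that day. No mitosis gene was called on that day, and the median of that list was −0.07. In the difference of the step from day 1 to day 2, ASF1B (−1.09), CCNE1 (−0.97) and POLE4 (−0.92) passed. The genes of this paragraph were named after their values were seen.

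The adipocyte markers moved in these same comparisons, and their part in the results was not tested. From day 0 to day 1, 3 of 7 markers rose in the control and 0 in the PPARγ KD, beside 4.89% and 4.7% of all probes. From day 1 to day 2, 6 of 7 rose in the control, where 3.41% of all probes were called in either direction. In the PPARγ KD 3 of 7 rose in that step, with a median of 0.49 against −0.04 over all probes. On day 0, 5 of the 7 were called lower in the PPARγ KD, with a median of −1.97 against 0.07 over all probes. On day 2, 6 of the 7 were called lower, beside 4.18% of all probes. Of the 6 fibroblast markers 3 were called higher on day 2, beside 4.74% of all probes, with a median of 0.78.

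**Figure D4:**
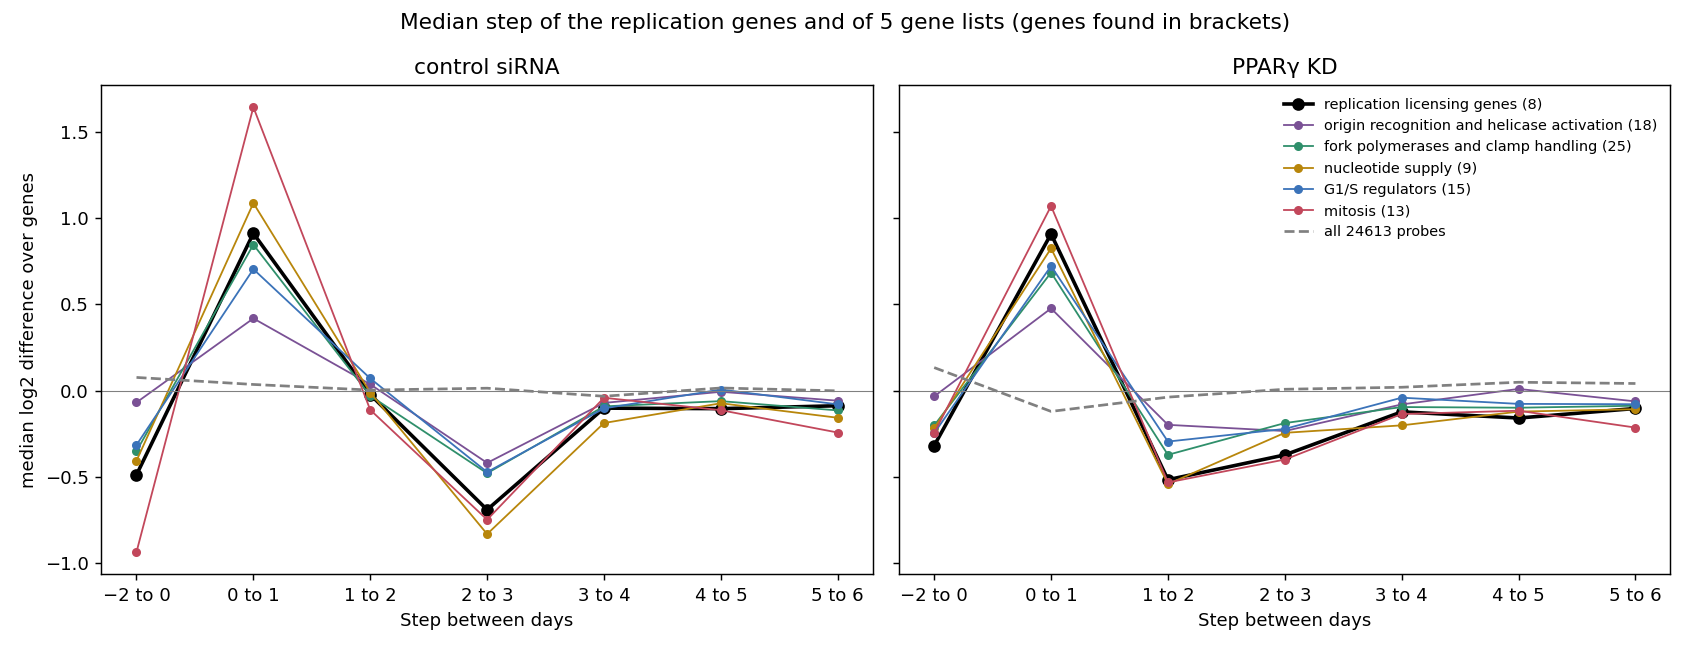
The median log2 difference over the genes of each list is plotted for the 7 steps between days, under control siRNA (left) and in the PPARγ KD (right), with the 8 replication licensing genes in black and all 24613 probes as a dashed line. Medians have no error bars because genes are not replicates. The licensing genes reach 0.91 from day 0 to day 1 under both siRNAs, and the next step is −0.02 in the control and −0.52 in the PPARγ KD.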

How the data were processed

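RNA from 48 cultures was hybridised to Illumina MouseRef-8 bead arrays, and samples were grouped by their titles. The deposited values are the mean intensity of the beads of a probe, not normalized, beside their SD, their number and a detection fraction (1 minus a p-value). The study's methods name a normalization on rank-invariant probes and a correction for batch, neither of which is in these values. Array medians lay between 105.1 and 141.7, and the number of arrays limits the precision.

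Background was corrected by normexp from the detection p-values with an offset of 16 (limma 3.58.1, R 4.3.3). Arrays were scaled on rank-invariant probes (rank moving by less than 0.05 of all probes, between percentiles 50 and 90 of the mean signal), with factors from 0.635 to 1.37, and log2 values were taken. This stands in for BeadStudio's own routine, which was not used here. One model held all arrays, with the 16 combinations of siRNA and day as means and replicate number as block (lmFit, eBayes), and p-values were Bonferroni-adjusted over all probes at 0.05, after the study's methods. Samples of the same day and replicate number were taken as pairs, and their deviations from the group means correlated between 0.631 and 0.928 in all 24 pairs. Replicates 1 and 2 correlated as highly with each other (0.649 to 0.884), so the numbers chiefly set replicate 3 apart. The correlations do not show that the same-numbered samples of replicates 1 and 2 belong together. The fits were tested on simulated data.

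Members, gene lists and markers were chosen with earlier results of these data known. From each list, up to 4 called genes with the largest difference over 8 days and the 2 called genes with the largest control step from day 0 to day 1 are named, others as stated. Probes were not above background at a detection p of 0.01 or more. A gene above background on no array of a group is given as a lower bound, taken per array against its own signal or the lowest one still above background, whichever is higher. Promoter windows came from RefSeq (GRCm38.p6). Alternatives were quantile normalization, no background correction, an offset of 50, a filter on dim probes, other blocks, Benjamini-Hochberg adjustment and leaving out each replicate. Figures were drawn with matplotlib 3.10.9.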

Additional observations from a re-analysis of the deposited data

Results flagged for a closer look

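CDT1 was singled out on account of a difference between days. The difference between PPARγ KD and control siRNA ranged over 1.08 on the log2 scale across the 8 days, from −0.46 on day 2 to 0.62 on day 0, and the test of variation between days passed (adjusted p = 0.00565 from limma). CDT1 was also singled out for the step from day 1 to day 2, where the PPARγ KD step minus the control step was −0.73 (adjusted p = 0.0402 from limma) and lay below 0 in all 3 replicates. Both rest in part on the same arrays of day 2, and neither passed with any one replicate left out or with no replicate block.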

How the results depend on the processing

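Of the values of single genes under other settings, 335 stayed on their side of the threshold, 23 came to pass it and 26 no longer passed it. In 7 cases a value that was not called changed its sign, and no called value did. Over the 8 days, 2 genes were called as reported, 5 with quantile normalization, 4 without background correction, 5 with Benjamini-Hochberg adjustment, 1 with a replicate block by day, 1 with no replicate block and 0 to 4 without each replicate. On day 0 the count of 2 became 4 with Benjamini-Hochberg adjustment, 0 with a replicate block by day, 1 with no replicate block and 0 to 3 without each replicate. With no replicate block the control counts were 4 (day 0 to 1), 2 (day 2 to 3) and 2 (day −2 to 6), the PPARγ KD counts 0 (day −2 to 0), 3 (day 0 to 1) and 0 (day 1 to 2), the count for the difference of steps from day 1 to 2 was 0 and that for variation between days 0, the last being 0 with a replicate block by day too. From day −2 to 0 the PPARγ KD count of 1 was 2 with quantile normalization and 2 among probes above background on 3 arrays. With Benjamini-Hochberg adjustment the counts were 7 (control) and 5 (PPARγ KD) from day −2 to 0, 8 for the control from day 2 to 3, 7 for each siRNA from day −2 to 6, 6 for the PPARγ KD from day 1 to 2, 4 for the difference of steps and 5 for variation between days. Without each replicate the control counts ran from 0 to 3 (day −2 to 0), 3 to 6 (day 0 to 1), 2 to 5 (day 2 to 3) and 0 to 4 (day −2 to 6), the PPARγ KD counts were 0 each time (day −2 to 0), then 4 to 6 (day 0 to 1), 0 to 2 (day 1 to 2) and 0 to 2 (day −2 to 6), and the difference of steps and variation between days gave 0 each time. The median of the 8 genes on day 2 was −0.0862 with quantile normalization and −0.0633 without background correction, and the control median from day 0 to 1 was 0.754 without background correction and 0.840 with an offset of 50. The cause of these shifts was not tested. Leaving out a replicate also lowers the number of arrays, and its part in the lost calls was not tested. Signal near background limits the dim probes, which have a bound or no fold here.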
